A study of Mus musculus with 4 samples.

Results

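The Kruppel-like factors are a family of zinc finger transcription factors, and 10 of their genes, Klf2, Klf3, Klf4, Klf6, Klf7, Klf9, Klf10, Klf11, Klf13 and Klf15, were followed in sorted mouse β cells with and without mutant alleles of the Roundabout receptors. The 10 genes were picked by symbol among the 51912 genes of the table, with their levels and their differences between the genotypes already known, so both are given here as descriptions and without a test. All 10 had at least 10 counts in at least 2 libraries and were among the 16517 genes fitted. The table holds 7 further Klf genes and the 9 genes of the related Sp factors, which serve as comparison.

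There were 2 libraries of each genotype, all from pancreatic β cells of neonates at day 13. The Robo mutant libraries carried Robo1delta/delta and Robo2flx/flx, and the control libraries carried Robo1+/+ and Robo2+/+. All 4 libraries also carried Ucn3-Cre/+, which expresses the Cre recombinase in maturing β cells, and Rosa26-lsl-H2B-mCherry/+, a nuclear reporter that Cre turns on and by which the cells were sorted. Deletion at Robo2 depends on Cre, while the labels give the Robo1 allele as deleted, which does not limit its loss to cells with Cre. Whether each library is from its own animal is not stated, so the spread between libraries may be technical. The question in the series title is whether β cells need Roundabout receptors for islet cells to sort into their mature arrangement.

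The libraries held between 38886129 and 49593712 counts. Robo1 was at 22.3 and 21 CPM (counts scaled to a common library size with TMM factors) in Robo mutant 1 and 2, against 48.5 and 104 CPM in control 1 and 2, and Robo2 at 32.7 and 25.6 CPM against 75.3 and 118 CPM. Both targeted genes were thus lower in both mutant libraries. The cells carried β-cell transcripts as labelled: all 10 markers on the list were detected in every library, and Ins1 and Ins2 together took 20.0% and 12.8% of counts in Robo mutant 1 and 2, against 20.0% and 17.5% in control 1 and 2. Robo mutant 2 was the highest library in 9 of 10 markers of the enzyme-secreting acinar cells, all but Pnlip, and the summed level of the 10 was 34725 CPM there, 1841 CPM in Robo mutant 1, and 3823 and 401 CPM in control 1 and 2. It also had the lowest stromal sum, 13.0 CPM over 9 markers, against 1097 CPM in Robo mutant 1 and 2418 and 703 CPM in control 1 and 2.

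Kruppel-like factors bind CACCC and GC-rich boxes in promoters through a shared set of C-terminal zinc fingers, and differ mainly in the N-terminal part that recruits partners. Klf2, Klf4, Klf6 and Klf7 belong to a subgroup that mostly activates transcription with acetyltransferases, Klf3 recruits the corepressor CtBP, and Klf9, Klf10, Klf11 and Klf13 recruit the corepressor Sin3a. Several are induced quickly by growth factors, stress or cell handling, as immediate early genes are, and Klf9 and Klf15 respond to glucocorticoids. In β cells Klf11 is known as a regulator of the insulin and Pdx1 genes and has been linked to an inherited form of diabetes.

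The data showed 9 of the 10 members with a higher mean in Robo mutant β cells, led by Klf4 and Klf10 at 2.07-fold and 2.05-fold, and Klf11 alone with a lower mean, 1.17-fold. Of all genes fitted, 48.7% had a log2 difference above 0. In 6 members, Klf2, Klf4, Klf7, Klf9, Klf10 and Klf13, both mutant libraries lay above both controls, an arrangement found in 16.1% of all 16517 genes fitted. In Klf11 both mutant libraries lay below both controls, as in 20.4% of all genes. Klf3, Klf6 and Klf15 overlapped between the genotypes. Since the members were picked with this comparison known, nothing is read from these counts. The median log2 difference of the members, Robo mutant minus control, was 0.48, beside -0.013 over all genes fitted. In bulk libraries fewer cells that express a gene and less RNA per cell cannot be told apart.

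**Figure D1:**
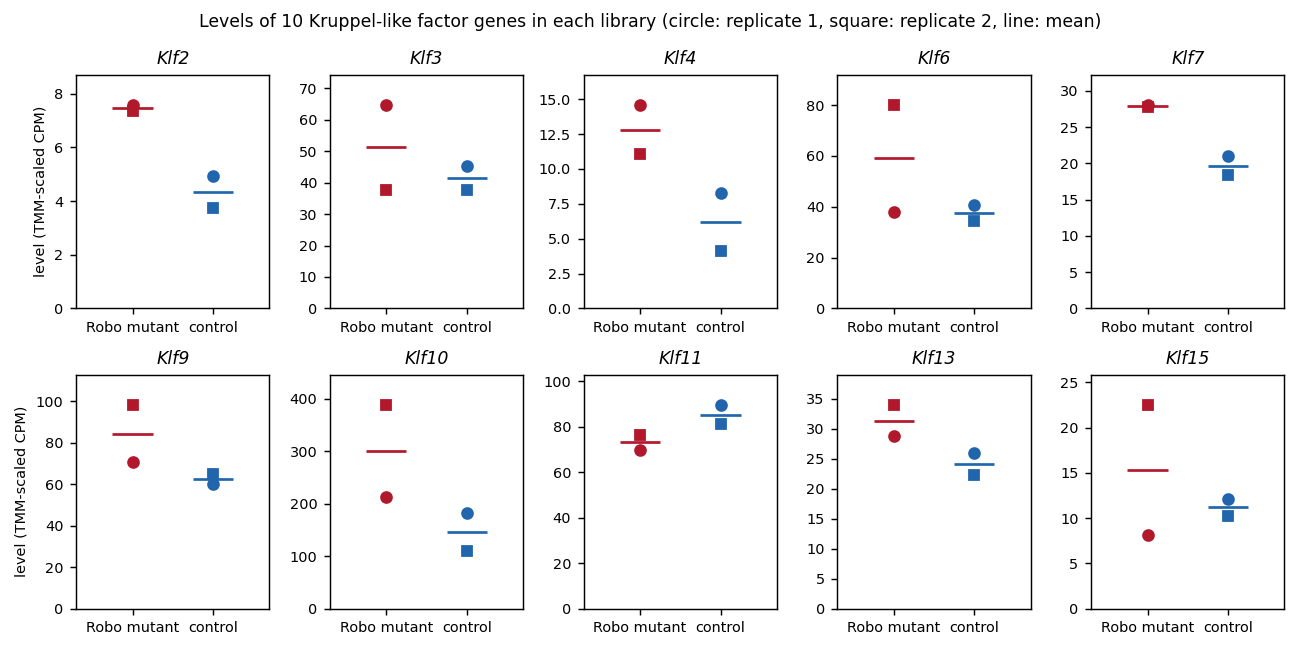
Level of each member in the 2 Robo mutant libraries (left, red) and the 2 control libraries (right, blue), in TMM-scaled CPM, with the mean of each genotype as a line. Klf2 and Klf7 have nearly equal mutant values above both controls, Klf11 lies lower in both mutant libraries, and Klf6 and Klf15 are high in Robo mutant 2 only.

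No member passed the fit across all genes. With edgeR's quasi-likelihood test 0 of the 10 had an adjusted p under 0.05 and 0 had an unadjusted p under 0.05, beside 0% and 6.21% of all genes fitted. DESeq2, which called 0.914% of all genes, also called 0 of the 10. The log2 differences below therefore come with standard errors that the 2 libraries per genotype leave wide. The targeted genes Robo1 and Robo2 did not pass in edgeR either (adjusted p = 0.680 for both), while DESeq2 called both (adjusted p = 0.00186 and 1.99e-05).

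Set per kilobase of annotated exon, so that genes can be compared, Klf10 had the highest level of the 10 in both genotypes. It stood at 71.8 ± 29.5 and 35.0 ± 12.1 CPM per kilobase in Robo mutant and control cells (SD, n = 2 each), and 93.0% of the genes fitted had a lower control level per kilobase. In the controls Klf11 (19.7 ± 1.32), Klf9 (13.0 ± 0.689) and Klf6 (8.59 ± 1.03) followed, in CPM per kilobase, each with both control libraries apart from those of its neighbours. Klf15 (4.01), Klf3 (3.69) and Klf13 (3.20) came next, with overlapping control libraries between neighbours in that order. Klf7 (2.42), Klf2 (2.35) and Klf4 (2.04) were lowest and overlapped with their neighbours among these 3, while Klf13 was separate from Klf7. Klf4, the lowest member, was still above 41.9% of the genes fitted. The order of the means was another in the mutant libraries. Klf9 (17.5 ± 4.04) stood before Klf11 (16.8 ± 1.07), with overlapping libraries. Klf4 (4.21 ± 0.817) stood before Klf13 (4.16 ± 0.475) and Klf2 (4.04 ± 0.0907), again with overlapping libraries, and Klf7 (3.43 ± 0.0256) was last.

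**Figure D2:**
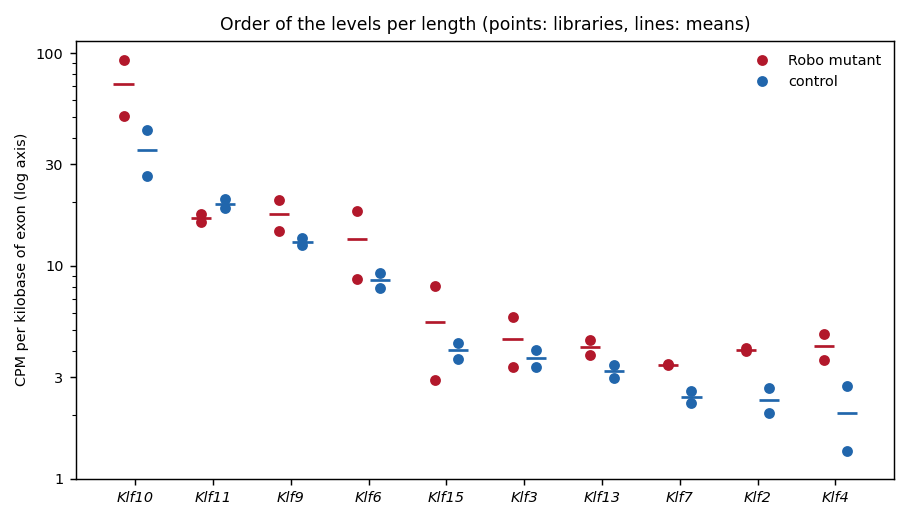
Level of each member in CPM per kilobase of annotated exon on a log axis, ordered by the control mean, with Robo mutant libraries in red left of control libraries in blue and means as lines. Klf10 is highest in both genotypes, at 71.8 in mutant and 35.0 in control cells.

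Klf10 made up 39.2% and 49.5% of the summed CPM of the 10 members in Robo mutant 1 and 2, against 37.2% and 28.5% in control 1 and 2. The sum of all 10 was 543 and 782 CPM in Robo mutant 1 and 2 and 490 and 387 CPM in control 1 and 2. Without Klf10 it was 330 and 395 CPM, against 308 and 277 CPM. The summed level was thus higher in both mutant libraries with and without its most abundant member.

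Promoter sequences are shown for 4 of the members whose genotypes did not overlap. These are Klf2, Klf4 and Klf7, which were higher in both mutant libraries, and Klf11, which was lower in both. Klf9 and Klf13, also without overlap, are not printed. The sequences come from RefSeq on GRCm38.p6 and run 5′ to 3′ on the gene's strand. Each window runs from 250 bases before the annotated start to 50 after it. Capitals mark matches on either strand to CACCC, the box that gives the family its binding preference, to GGGCGG, the GC box, to CACGTG, an E-box, and to the MEF2 site. TGACGTCA, the cyclic AMP response element, and the CArG box bound by serum response factor were searched too and have no match in them.
Klf2, chr8:72318812-72319111, plus strand: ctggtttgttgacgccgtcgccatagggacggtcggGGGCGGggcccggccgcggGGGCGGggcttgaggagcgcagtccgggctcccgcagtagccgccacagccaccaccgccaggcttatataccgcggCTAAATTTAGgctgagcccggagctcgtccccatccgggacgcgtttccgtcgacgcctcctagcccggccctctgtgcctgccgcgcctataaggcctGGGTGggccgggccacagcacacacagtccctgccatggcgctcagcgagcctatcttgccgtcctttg
Klf4, chr4:55532426-55532725, minus strand: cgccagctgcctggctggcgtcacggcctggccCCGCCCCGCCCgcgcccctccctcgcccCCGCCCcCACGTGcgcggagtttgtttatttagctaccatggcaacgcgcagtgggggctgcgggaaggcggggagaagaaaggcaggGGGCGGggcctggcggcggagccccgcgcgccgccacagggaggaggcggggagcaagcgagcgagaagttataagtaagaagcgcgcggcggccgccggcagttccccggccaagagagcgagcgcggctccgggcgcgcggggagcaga
Klf7, chr1:64121340-64121639, minus strand: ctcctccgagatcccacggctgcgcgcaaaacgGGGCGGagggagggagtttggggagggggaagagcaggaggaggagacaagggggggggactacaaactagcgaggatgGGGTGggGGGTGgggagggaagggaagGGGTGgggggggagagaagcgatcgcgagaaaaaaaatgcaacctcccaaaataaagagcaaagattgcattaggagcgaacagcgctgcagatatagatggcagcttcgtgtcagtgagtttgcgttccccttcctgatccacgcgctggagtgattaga
Klf11, chr12:24651121-24651420, plus strand: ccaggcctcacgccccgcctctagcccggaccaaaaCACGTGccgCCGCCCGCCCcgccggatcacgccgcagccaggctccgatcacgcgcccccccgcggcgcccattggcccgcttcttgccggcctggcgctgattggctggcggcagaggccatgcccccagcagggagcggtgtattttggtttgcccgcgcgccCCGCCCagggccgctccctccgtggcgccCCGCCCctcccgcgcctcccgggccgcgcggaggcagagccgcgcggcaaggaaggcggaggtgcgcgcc

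The 4 promoters differ in these letters. The Klf2 window holds a MEF2 site that begins 118 bases before the start, and of the members matched only Klf2 has one. Klf7 has 3 CACCC matches between 138 and 111 bases before the start, Klf2 has 1, and Klf4 and Klf11 have none but 4 GC box matches each. Neighbouring GC box matches share bases in Klf4, at 217 and 212 bases before the start, and in Klf11, at 205 and 201. Of the 10 members 9 were matched in the table and Klf10 was not. Among those 9, CACCC was found in 6, GGGCGG in 8, CACGTG in 4, the MEF2 site in 1, and TGACGTCA and the CArG box in 0. Of all 32851 promoters in the table, 57.5% hold CACCC, 35.7% GGGCGG, 7.15% CACGTG, 3.19% the MEF2 site, 1.79% TGACGTCA and 1.63% the CArG box. Members' windows are GC-rich, from 58.3% to 77.7% against a median of 52.7% over all promoters, and GC-rich letters match GC boxes more often. A CACCC and a GGGCGG match share bases once in Klf3 and once in Klf13, and in no window shown do matches to different motifs overlap. Distances are from the RefSeq start, and the Klf7 window lies wholly inside that gene's span in GENCODE M21 (chromosome 1, 64029447 to 64122282). Matches describe the letters of these windows and do not show binding.

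Among the activating subgroup, Klf2, which is best known for its induction by blood flow in endothelial cells, was at 7.58 and 7.35 CPM in Robo mutant 1 and 2 and at 4.93 and 3.75 CPM in control 1 and 2. The mutant libraries lay close together and above both controls, 1.72-fold by the means. Its log2 difference was 0.78 with a standard error of 0.41. Klf2 (ENSMUSG00000055148, chromosome 8, 72319033 to 72321656, GRCm38) had the fewest counts of the 10, from 153 to 379 per library. Of 10 endothelial markers, 6 had no count in either mutant library, among them Kdr, Cdh5 and Tek. Control 1 had no count for 5 of the 10, while control 2 had counts for all 10. The most abundant marker in the mutants, Esam, was at 2.86 and 5.63 CPM in Robo mutant 1 and 2, against 3.18 and 5.40 CPM in control 1 and 2, and the list summed to 5.02 and 5.81 CPM in Robo mutant 1 and 2, against 4.58 and 18.7 CPM in control 1 and 2. The part of endothelial RNA in the level of Klf2 was not tested.

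Klf4, a factor of epithelial differentiation and pluripotency that restrains proliferation in many cells, stood at 14.6 and 11.1 CPM in Robo mutant 1 and 2, against 8.29 and 4.12 CPM in control 1 and 2. The genotypes did not overlap, but the controls themselves differed 2.01-fold, nearly as much as the 2.07-fold between the genotype means. The log2 difference was 1.05 with a standard error of 0.47, and it was 1.64 without control 1 and 0.63 without control 2. Klf4 (ENSMUSG00000003032) lies on chromosome 4, 55527143 to 55532466.

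Klf6, an early response gene of injury and wound repair, was at 38.0 and 80.1 CPM in Robo mutant 1 and 2 and at 40.9 and 34.5 CPM in control 1 and 2. Only Robo mutant 2 was high, and Robo mutant 1 lay between the controls. Without Robo mutant 2 the log2 difference was 0.012 in place of 0.65, and without Robo mutant 1 it was 1.09. Klf6 (ENSMUSG00000000078) lies on chromosome 13, 5861482 to 5870394.

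Klf7, a factor of neuronal development, had mutant libraries close together, at 28.0 and 27.8 CPM in Robo mutant 1 and 2 against 21 and 18.4 CPM in control 1 and 2. All mutant values lay above all control values, 1.42-fold by the means of 27.9 ± 0.208 and 19.7 ± 1.85 CPM in mutant and control cells (SD, n = 2 each). Its log2 difference was 0.50 with a standard error of 0.19 and stayed between 0.41 and 0.60 when each library was left out in turn. Klf7 (ENSMUSG00000025959) lies on chromosome 1, 64029447 to 64122282. The libraries carry no strand information, and 3196 bases of its exons are shared with the antisense gene Gm26649, which is listed with 0 counts in every library.

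In the subgroup that recruits CtBP, Klf3, a repressor known from blood and fat cells, was at 64.6 and 37.7 CPM in Robo mutant 1 and 2 and at 45.2 and 37.8 CPM in control 1 and 2. Robo mutant 1 was the highest library and Robo mutant 2 the lowest, level with control 2. The log2 difference of 0.30 (standard error 0.30) became -0.14 without Robo mutant 1 and 0.64 without Robo mutant 2. Klf3 (ENSMUSG00000029178, chromosome 5, 64803388 to 64832901) shares 404 exon bases with the antisense gene Gm20033, which had at most 11 counts in a library.

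In the subgroup that recruits Sin3a, Klf10, also called TGFβ-inducible early gene for its rapid response to that factor, was at 213 and 387 CPM in Robo mutant 1 and 2, against 182 and 110 CPM in control 1 and 2. Both mutant libraries were above both controls. The libraries of one genotype nevertheless differed 1.82-fold between the mutants and 1.65-fold between the controls, beside 2.05-fold between the means of 300.0 ± 123 and 146 ± 50.8 CPM in mutant and control cells (SD, n = 2 each). The log2 difference was 1.04 with a standard error of 0.40. It was 0.54 without Robo mutant 2. That library had the highest acinar sum, and the part of acinar RNA in the difference was not tested. Klf10 (ENSMUSG00000037465) lies on chromosome 15, 38291463 to 38300706.

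Klf11, the close relative of Klf10 that acts on insulin and Pdx1 genes, was at 69.8 and 76.4 CPM in Robo mutant 1 and 2 and at 89.4 and 81.2 CPM in control 1 and 2. The genotypes were separate but near each other, with a log2 difference of -0.22 and a standard error of 0.13. The difference kept its sign when each library was left out in turn, from -0.29 to -0.15. Klf11 (ENSMUSG00000020653) lies on chromosome 12, 24651274 to 24662789. Pdx1, a master regulator gene of β cells, was at 189 and 149 CPM in Robo mutant 1 and 2 and 203 and 235 CPM in control 1 and 2, and did not pass in edgeR (adjusted p = 0.897).

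Klf9, a factor that answers to glucocorticoid and thyroid hormones, was at 70.6 and 98.0 CPM in Robo mutant 1 and 2, against 60.2 and 64.9 CPM in control 1 and 2. It was the only member that was higher in control 2 than in control 1, and its controls were close together. The log2 difference was 0.43 with a standard error of 0.20, and it was 0.18 without Robo mutant 2 and 0.65 without Robo mutant 1. Klf9 (ENSMUSG00000033863) lies on chromosome 19, 23141226 to 23168134. Klf13, which is known from lymphocytes and the heart, was at 28.8 and 33.9 CPM in Robo mutant 1 and 2 and at 25.9 and 22.3 CPM in control 1 and 2. Its genotypes did not overlap, with a log2 difference of 0.38 and a standard error of 0.20. Klf13 (ENSMUSG00000052040) lies on chromosome 7, 63886351 to 63938915.

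Klf15, a regulator of amino acid and glucose metabolism in liver and muscle that is not assigned to these subgroups, was at 8.12 and 22.5 CPM in Robo mutant 1 and 2, against 12.2 and 10.2 CPM in control 1 and 2. The mutant libraries lay on both sides of the controls and differed 2.76-fold from each other, more than those of any other member. The log2 difference of 0.45 (standard error 0.55) was -0.46 without Robo mutant 2 and 1.00 without Robo mutant 1. Klf15 (ENSMUSG00000030087) lies on chromosome 6, 90462576 to 90475238.

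Across libraries, 9 of the 10 members were lower in control 2 than in control 1, while 49.8% of all genes fitted were. The highest library was Robo mutant 2 for 5 members, Robo mutant 1 for 4 and control 1 for 1, and the lowest was control 2 for 6. The median log2 deviation of the members from the control mean was 0.38 and 0.70 in Robo mutant 1 and 2, against 0.12 and -0.13 in control 1 and 2. The summed level of the 13 immediate early genes of the list, such as Fos and Egr1, had the same order of libraries as the members' sum. Fosb, Dusp1 and Ier3 did not follow that order singly. The 13 genes summed to 14160 and 17056 CPM in Robo mutant 1 and 2, against 11202 and 4852 CPM in control 1 and 2. Of the 13, 12 had both mutant libraries above both controls, beside 16.1% of all genes fitted. In edgeR 0 of the 13 passed and 3 had an unadjusted p under 0.05, beside 0% and 6.21% of all genes fitted. DESeq2, which called 0.914% of all genes, called 2 of the 13, Fosl2 (adjusted p = 0.000381) and Atf3 (adjusted p = 0.0132). This list too was chosen with earlier results known, so nothing is read from these counts. The part of cell handling before sorting in the members' differences was not tested.

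**Figure D3:**
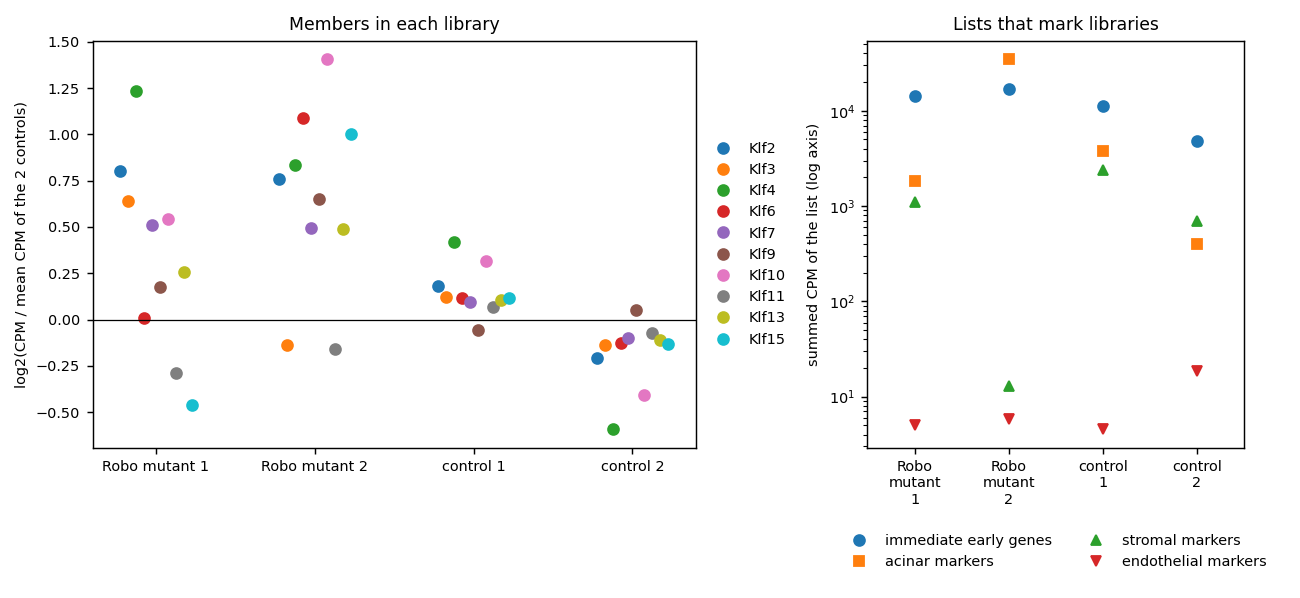
Left, log2 ratio of each member's CPM to its mean in the 2 controls, for Robo mutant 1, Robo mutant 2, control 1 and control 2. Right, summed CPM of the immediate early, acinar, stromal and endothelial lists in the same libraries on a log axis: the immediate early sum is lowest in control 2 (4852 CPM), and the acinar sum is highest in Robo mutant 2 (34725 CPM).

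Of the 7 Klf genes outside the 10, Klf5, Klf12 and Klf16 were also above both controls in both mutant libraries, with log2 differences of 0.85, 0.61 and 1.13. Klf5, a factor of proliferating epithelia, was at 63.5 and 108 CPM in Robo mutant 1 and 2, against 48.0 and 46.8 CPM in control 1 and 2, a level near that of Klf6. Klf16 was at 8.82 and 15.5 CPM against 6.20 and 4.86 CPM, and Klf12 at 5.18 and 4.90 CPM against 3.32 and 3.29 CPM. None passed in edgeR (adjusted p from 0.752 to 0.974). Over all genes fitted the arrangement was found in 16.1%, and Klf8, Klf1, Klf14 and Klf17 did not show it.

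The remaining Klf genes were scarce. Klf8 had 0 and 217 counts in Robo mutant 1 and 2 and 84 and 73 in control 1 and 2, so the mutant libraries lay on both sides of the controls. Klf1, the erythroid factor, had 0 counts in both mutant libraries and 15 and 14 in control 1 and 2. With 3 counts per library taken as the floor it was at least 5.21-fold lower, a bound that covers counting error only. Klf8, at 0 and 217 counts, shows that libraries of one genotype can differ by more. Klf1 was fitted only through its control counts, and 20.4% of all genes fitted lay below both controls in both mutant libraries. Klf14 had 0 counts in both mutant libraries and 7 and 3 in control 1 and 2, and Klf17 had 0 in all, which allows up to 3 counts in each. Fewer genes were detected in the mutant libraries in general, 17751 and 17937 in Robo mutant 1 and 2 against 19919 and 20918 in control 1 and 2. Of the genes fitted, 304 were at 0 in both mutant libraries and 21 in both control libraries.

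The Sp genes, whose products share the zinc finger type and bind the same GC boxes, had differences in both directions. Of the 9 listed genes, 5 were fitted, and none lay above both controls in both mutant libraries. Sp3, the most abundant, was at 85.0 and 80.6 CPM in Robo mutant 1 and 2 and at 91.5 and 93.3 CPM in control 1 and 2, below both controls. The log2 differences of Sp1, Sp2 and Sp4 were 0.13, 0.0042 and 0.036, each smaller than its standard error. Sp6, with a log2 difference of 0.39 and a standard error of 1.08, overlapped at 1.80 and 0.418 CPM against 0.815 and 0.883 CPM, while Sp5, Sp7, Sp8 and Sp9 had 0 to 39 counts in a library. The median log2 difference of the 5 fitted Sp genes was 0.036, beside 0.48 for the 10 Klf members. The difference between the families was not tested.

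**Figure D4:**
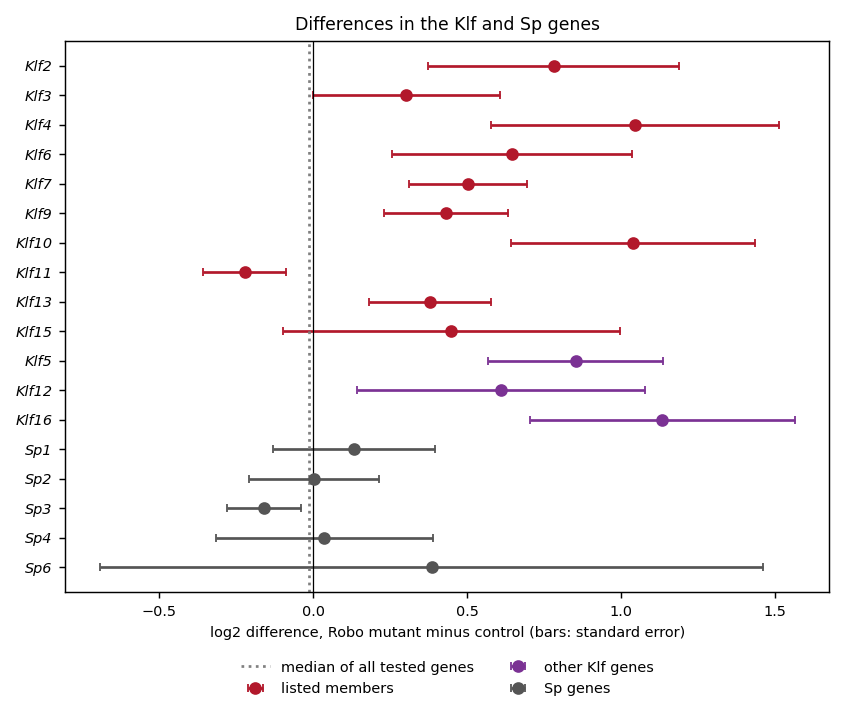
Log2 difference, Robo mutant minus control, with its standard error from the fit across all genes, for the 10 members (red), 3 other Klf genes (purple) and 5 Sp genes (grey). Klf1 and Klf8, which have a library at 0, are left out; 9 of the 10 members lie right of 0 and Klf11 left of it.

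Partners of the family showed differences in both directions. Of 13 cofactors and ubiquitin ligases, 6 lay above both controls in both mutant libraries and 1 below, beside 16.1% and 20.4% of all genes fitted, with a median log2 difference of 0.13. None passed in edgeR, where 2 had an unadjusted p under 0.05, beside 6.21% of all genes. Those 2 were Ctbp2, a corepressor that Klf3 recruits, at 22.2 and 24.0 CPM in Robo mutant 1 and 2 against 15.4 and 12.4 CPM in control 1 and 2, and the acetyltransferase gene Crebbp, at 57.1 and 58.1 CPM against 45.7 and 41.1 CPM. Ctbp1, the most abundant partner, was at 202 and 199 CPM against 194 and 180 CPM, and the histone deacetylase gene Hdac2 at 170 and 150 CPM against 155 and 172 CPM. DESeq2 called 0 of the 13.

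Genes of the signals that induce the family were divided. Of 18 fitted, 9 had a higher and 9 a lower mean in the mutant cells, 0 passed in edgeR, 0 had an unadjusted p under 0.05 and DESeq2 called 0. Mef2a, whose product binds the MEF2 site, was at 91.6 and 99.8 CPM in Robo mutant 1 and 2 and at 69.3 and 82.4 CPM in control 1 and 2. Srf, the gene of serum response factor, was at 25.4 and 38.3 CPM against 23.4 and 15.1 CPM, and Nr3c1, which encodes the glucocorticoid receptor, at 139 and 159 CPM against 127 and 133 CPM. These 3 and Thra, a thyroid hormone receptor gene, lay above both controls in both mutant libraries, 4 of 18 beside 16.1% of all genes fitted. Below both controls were 2 of 18, beside 20.4% of all genes, namely the kinase genes of the ERK5 pathway, Mapk7 at 15.4 and 25.4 CPM in Robo mutant 1 and 2 against 28.5 and 25.7 CPM in control 1 and 2, and Map2k5 at 16.6 and 18.2 CPM against 20.5 and 25.5 CPM. Foxo1, which encodes a factor restrained by insulin signalling, overlapped at 145 and 167 CPM against 127 and 159 CPM.

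Among 10 genes that glucocorticoids induce, as they do Klf9 and Klf15, 9 were fitted, 6 with a higher and 3 with a lower mean in the mutant cells. The 3 with a lower mean were Fkbp5, Tsc22d3 and Ddit4, with log2 differences of -0.076, -0.24 and -0.57. The metallothionein genes Mt1 and Mt2 had an unadjusted p under 0.05 in edgeR, as 6.21% of all genes fitted had. In edgeR 0 of the 9 passed (adjusted p = 0.795 and 0.804 for Mt1 and Mt2), and DESeq2 called 0. Mt1 was at 199 and 405 CPM in Robo mutant 1 and 2 against 163 and 97.8 CPM in control 1 and 2, and Errfi1, a feedback inhibitor of the EGF receptor, at 81.3 and 167 CPM against 69.8 and 60.3 CPM. Both were highest in Robo mutant 2, as Klf6, Klf9, Klf10, Klf13 and Klf15 were.

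Of 15 genes known from other systems as targets of family members, 11 were fitted, 4 with a higher and 7 with a lower mean in the mutant cells. Their median log2 difference was -0.18, and 0 passed in edgeR. An unadjusted p under 0.05 was found in edgeR in 6.21% of all genes fitted and in 1 of the 11. That gene was Cdkn1a, which encodes the cell cycle inhibitor p21 and is activated by Klf4 and Klf6 in other cells. It was at 38.9 and 64.5 CPM in Robo mutant 1 and 2 against 20.7 and 18.4 CPM in control 1 and 2, a log2 difference of 1.40 with a standard error of 0.30. The adjusted p was 0.680 in edgeR, while DESeq2 called it (adjusted p = 0.0089), as it did 0.914% of all genes. Thbd, the gene of thrombomodulin and an endothelial target of Klf2, was lower at 1.60 and 1.87 CPM against 6.79 and 2.94 CPM and did not pass (edgeR, adjusted p = 0.888).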

How the data were processed

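RNA sequencing was done on mCherry-sorted β cells with the SMART-Seq v4 and Nextera XT kits, per the labels' protocols. The submitters' processing notes name build GRCm38 and the tools RSEM 1.3.0, STAR 2.5.3a, edgeR 3.16.5 and bcl2fastq 2.20.0.422, without their settings. Values deposited by the authors are gene-level expected counts from RSEM, in whole numbers, although its name calls the values normalized. Its columns sum to different totals (38886129 to 49593712), so they were treated as estimated counts, and an earlier rescaling would make the totals differ from the sequencing depth.

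Genes that reached 10 counts in 2 or more libraries were fitted with edgeR 4.0.16 in R 4.3.3 (TMM, quasi-likelihood test, two-sided, Benjamini-Hochberg over all 16517 genes, threshold 0.05). CPM use TMM-scaled totals, and a standard error is the log2 difference divided by the root of its F statistic. Exon lengths and positions are from GENCODE M21, also GRCm38. The fit was tested on counts simulated with the same spread setting for all genes, so that test does not cover the uneven spread of these libraries. Alternatives included DESeq2 1.42.0 and limma 3.58.1. Members and lists were chosen with earlier results of these data known. Named are all Klf and Sp genes and, from each other list, those highest in CPM or smallest in p, with some left out for space. List members named as at 0, as antisense, as lower or as examples were chosen after their values were seen.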

Additional observations from a re-analysis of the deposited data

How the results depend on the processing

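Under 11 alternatives (other scaling factors, no filter or a stricter one, DESeq2, limma on quantile-normalized values, each library left out) no member reached an adjusted p under 0.05. DESeq2 called 151 genes in all, against 0 with edgeR. Leaving out each library gave 6 to 8 members with mutant libraries above the controls, 1 to 2 below, and a median log2 difference of the members from 0.385 to 0.704. With a library fewer these arrangements are met more easily by construction, and their shares over all genes were not computed. The members' sign was kept in 108 of 110 values. Klf3 turned to -0.14 without Robo mutant 1 (0.64 without Robo mutant 2) and Klf15 to -0.46 without Robo mutant 2 (1.00 without Robo mutant 1), by the construction of leaving out the library that was high. No paired analysis was possible because the labels give no replicate numbers and nothing ties a mutant library to a control. With 2 libraries per genotype, the absence of calls does not show that levels were equal, and Klf2, with 153 counts in its lowest library, is the least precisely counted member.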

Other observations

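Markers of other islet cells were present in all libraries. The 6 alpha-cell markers, mostly Gcg, summed to 19275 and 24117 CPM in Robo mutant 1 and 2, against 23796 and 11889 CPM in control 1 and 2, so that control 2 was lowest, as it was for 6 of the 10 Kruppel-like factor genes. The 4 delta-cell markers, mostly Sst, summed to 2506 and 1289 CPM against 1063 and 981 CPM. The 6 duct markers, mostly Krt7, summed to 459 and 486 CPM against 444 and 534 CPM. The 9 macrophage markers, such as C1qa and Csf1r, summed to 67.6 and 72.4 CPM against 53.2 and 26.6 CPM. Itgam had 170 and 81 counts in Robo mutant 1 and 2 and 0 in both controls, so it was fitted only through its mutant counts. A further entry under the symbol Itgam was at 0 in all libraries. The part of these cells in the members' levels was not tested.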
